A study of Homo sapiens with 6 samples.

Results

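The mRNAs of 7 genes that move, store and sense iron were followed in a CELF1 RIP-Seq experiment on human melanoma cells. These were TFRC, FTH1, FTL, IREB2, ACO1, SLC40A1 and SLC11A2, grouped by their known function, out of 19833 protein-coding genes with annotated exons. CELF1 (also called CUGBP1) is an RNA-binding protein known for GU-rich elements (GREs) in 3′ UTRs, and RIP-Seq sequences the RNA that comes down with an antibody against it (IP) beside RNA of the same lysate (input). The samples were SK-Mel-103 (IP replicate 1) and UACC-62 (IP replicates 1 and 3), each with its own input, 6 samples in all. Both are established melanoma lines, grown in serum-containing medium without any treatment, transgene or iron manipulation named in the labels, and fixed with formaldehyde before lysis. SK-Mel-103 therefore had 1 replicate and UACC-62 had 2, which are biological duplicates per the series design.

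Each file lists bins of 20 bp in which the Piranha model found more IP reads than it allowed for given the input. A bin counted for a gene when its centre lay in an exon of that gene on the transcript strand, taken as the reverse of the strand in the list. Values are given in the order SK-Mel-103, first UACC-62 sample (replicate 1) and second UACC-62 sample (replicate 3). The 7 genes held 493, 532 and 616 listed exon bins, of 816781, 780750 and 862731 in all. In exons, reads on the opposite strand were all but absent, with at most 2 listed bins in any of the 7 genes in any sample. Introns were not examined on that strand.

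Iron enters most cells as transferrin bound to the transferrin receptor, which TFRC encodes, and crosses membranes through the transporter encoded by SLC11A2. What is not used is stored in ferritin shells built from the heavy chain (FTH1) and the light chain (FTL), or leaves through ferroportin, the product of SLC40A1. The iron regulatory proteins IRP1 and IRP2, encoded by ACO1 and IREB2, bind hairpins called iron-responsive elements (IREs) when iron is scarce. An IRE in the 5′ UTR then blocks translation, as in the ferritin and ferroportin mRNAs, while the IREs in the 3′ UTR of TFRC protect that mRNA from decay.

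These hairpins are shown first, because they mark the regulated stretch of the TFRC 3′ UTR and the 5′ ends that the ferritin mRNAs share. They were found on the transcript strand of the annotated UTRs in the GRCh37 genome by 1 rule, a C, any 5 bases, the loop CAGUGN and 5 more bases, with all 5 bases of the upper stem able to pair. Each is printed 5′ to 3′ over 27 bases with the first 5 bases of the loop in capitals.
TFRC 3′ UTR, chr3:195777851-195777877, minus strand: auuaucggaagCAGUGccuuccauaau
TFRC 3′ UTR, chr3:195777447-195777473, minus strand: auuaucgggagCAGUGucuuccauaau
TFRC 3′ UTR, chr3:195777382-195777408, minus strand: uguaucggagaCAGUGaucuccauaug
TFRC 3′ UTR, chr3:195777335-195777361, minus strand: auuaucgggaaCAGUGuuucccauaau
FTH1 5′ UTR, chr11:61735047-61735073, minus strand: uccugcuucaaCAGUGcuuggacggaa
FTL 5′ UTR, chr19:49468593-49468619, plus strand: ucuugcuucaaCAGUGuuuggacggaa
SLC40A1 5′ UTR, chr2:190445388-190445414, minus strand: aacuucagcuaCAGUGuuagcuaaguu

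The rule found 4 IREs in TFRC, and they began at positions 939, 1343, 1408 and 1455, counted from 1 at the first base of its stop codon. It found no match in the UTRs of IREB2, ACO1 or SLC11A2, which says only that these letters are not there. Hairpins with other letters would be missed in TFRC too, so its IREs below are the 4 found by this rule. Across all genes 142 of 19707 (0.721%) had a match in a 3′ UTR and 35 of 19287 (0.181%) in a 5′ UTR.

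The values below are log2 IP over input, the IP reads of a gene's listed bins against the input reads of the same bins, with 1 read added to each and each divided by the total of its column. A value of 0 therefore means that a gene took the same share of the IP reads as of the input reads, and a value below 0 a smaller share. Totals over the listed bins were between 10958459 and 14436573 IP reads and between 8453517 and 10161917 input reads. The median of the 5170 protein-coding genes with at least 100 IP reads in each sample was itself below 0, at -0.29, -0.74 and -0.49 with 5th to 95th percentiles of -1.47 to 1.72, -2.40 to 2.04 and -2.06 to 2.08. Because only bins that passed are listed, each value is conditional on that choice, and input reads elsewhere in the mRNA are unknown. Of the melanocyte lineage markers, UACC-62 had reads of MITF, MLANA, TYR, DCT, SOX10 and S100B, whereas SK-Mel-103 had 651 IP reads of SOX10 but only 48 of MITF, 28 of MLANA and none listed of TYR, DCT or S100B. PMEL and TYRP1 had no listed bin in any sample. Of 7 markers of other cells, PTPRC had 25 and 8 IP reads in the UACC-62 samples, PECAM1 was not in the annotation used, and the other five had none.

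As a group the iron genes did not stand above other genes. Their median was -0.43, -1.34 and -1.17 over the 6 genes with enough reads. Only SLC40A1 was too low to enter. TFRC, FTH1, FTL and ACO1 were below 0 in all 3 samples, as 56.3% of all measured genes were, although ACO1 in SK-Mel-103 turned to 0.14 when reads were divided by exonic totals, and no iron gene was above 0 in all 3, as 28.4% were. Over all listed bins the ferritin mRNAs took the lowest places in every sample, and TFRC lay between them and IREB2. The place of FTH1, and its sign in SK-Mel-103, did not hold in the few bins without an exact copy elsewhere, given below with its copies.

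**Figure D1:**
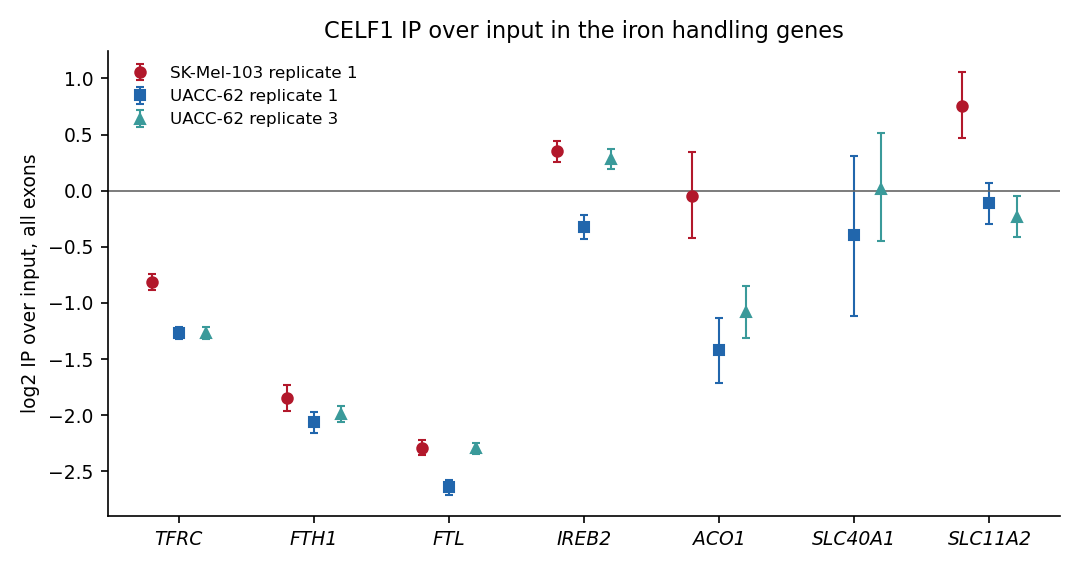
Log2 IP over input over all exons (vertical axis) of the 7 iron handling genes in each IP sample; bars are 95% exact binomial intervals that cover counting error only. FTL and FTH1 lie lowest in all 3 samples, between -2.64 and -1.84, and SLC40A1 has no listed bin in SK-Mel-103.

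Uptake through the transferrin receptor was represented by many reads. TFRC (chr3, minus strand) had 2973, 4362 and 4582 IP reads in its exons, against 4027, 9399 and 6807 input reads. In log2 IP over input this was -0.81 for SK-Mel-103, and -1.26 and -1.27 for the UACC-62 replicates (mean -1.27 ± 0.0028, SD, n = 2). These values were below the median of all genes, with 28.9%, 32.7% and 25.8% of the measured genes lower. SK-Mel-103 lay above both UACC-62 replicates, but it had no replicate of its own, so a difference between the lines cannot be told apart from one between single samples.

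Most TFRC reads came from the 3′ UTR. That region had 1933, 2920 and 3303 IP reads against 2531, 5998 and 4433 input reads, which gave -0.76, -1.20 and -1.12 (UACC-62 mean -1.16 ± 0.052, SD, n = 2). The coding region gave -0.90, -1.39 and -1.59, and the 5′ UTR had no listed bin. The 3′ UTR was thus above the coding region in each sample, by 0.27 ± 0.18 on the log2 scale (mean ± SD, n = 3). The same order held in all 3 samples for 75.3% of the 2008 genes with enough reads in both regions, whose median difference was 0.66.

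TFRC had 9 peaks common to the 3 IP samples, a peak being a bin with more than 30 IP reads at a listed p-value under 0.05 and a common peak the same bin in each sample. Of these, 8 lay in the 3′ UTR and 1 in the coding region, chr3:195778921-195778940. The bin at chr3:195778281-195778300 had the most IP reads of SK-Mel-103, with 48, 46 and 56 IP against 27, 69 and 46 input reads. It lay upstream of the IREs. None of the common peaks overlapped an IRE found by the rule. The common peak at chr3:195777601-195777620 lay between the found IRE nearest the stop codon and the other found IREs. It had 42, 32 and 45 IP reads against 25, 62 and 61 input reads. The common peak nearest the end of the mRNA, chr3:195776181-195776200, had 43, 50 and 73 IP reads against 30, 76 and 61. In each of these 3 bins SK-Mel-103 had more IP than input reads, UACC-62 replicate 1 fewer, and the coding region peak had fewer in every sample, with 33, 43 and 58 against 93, 143 and 85.

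The IREs themselves did have listed bins in all 3 samples. The bins over the IRE farthest from the stop codon held 34, 89 and 64 IP reads and 58, 89 and 81 input reads. Those over its neighbour at chr3:195777382-195777408 held 16, 25 and 50 IP reads and 16, 31 and 15 input reads, and the IRE nearest the stop codon had 8, 9 and 8 IP reads and 5, 24 and 12 input reads. The remaining IRE, chr3:195777447-195777473, held 18, 34 and 40 IP reads and 23, 70 and 33 input reads. Single bins over an IRE reached 18 IP reads in SK-Mel-103, and 34 and 40 in UACC-62, there above the peak threshold of 30. The highest bins of the whole TFRC 3′ UTR had 48, 64 and 81 IP reads.

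The stretch of 543 nt from the first to the last IRE found by the rule was set against the rest of the 3′ UTR. Inside it log2 IP over input was -1.12, -1.26 and -1.14, and outside it -0.67, -1.18 and -1.12. The difference was -0.44 in SK-Mel-103, and only -0.086 and -0.022 in UACC-62. Over the 3 samples this gave -0.18 ± 0.23 (mean ± SD, n = 3; 2-sided exact sign-flip permutation test, p = 0.25), a difference smaller than its own spread. With 3 samples 0.25 is the smallest p this test can give, so neither this nor any later comparison could pass 0.05. The sign was not stable, since the mean was 0.12 with only bins above 30 IP reads and 0.049 when only the IREs with 50 nt on each side were taken.

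Cut into 4 equal segments from the stop codon, the TFRC 3′ UTR of SK-Mel-103 gave -0.40, -0.98, -1.03 and -0.57, UACC-62 replicate 1 gave -1.14, -1.21, -1.33 and -1.09, and UACC-62 replicate 3 gave -1.05, -1.26, -1.32 and -0.86. The middle segments, which hold the IREs, were lower than both outer segments in all 3 samples. Between 26 and 33 of the 33 or 34 bin positions of each segment had a listed bin, with the fewest in SK-Mel-103.

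**Figure D2:**
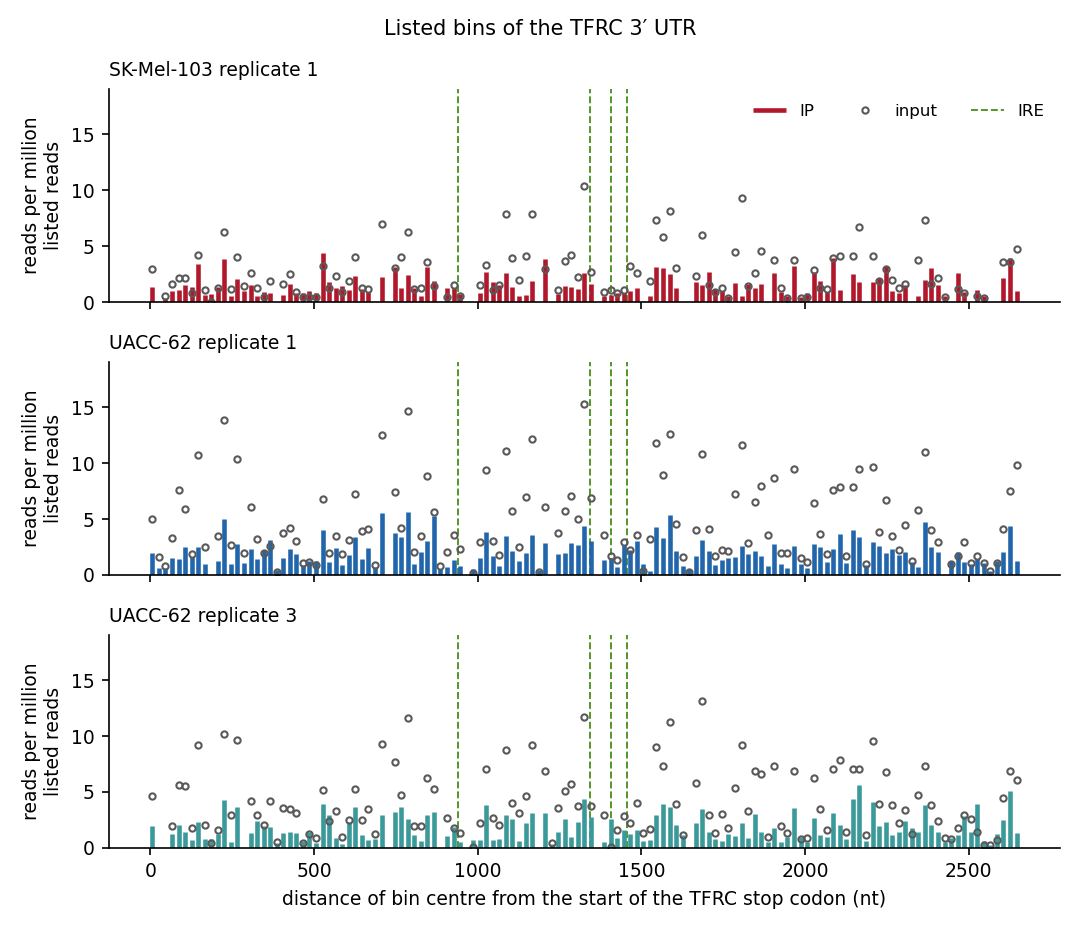
Reads per 1000000 listed reads (vertical axis) of IP (bars) and input (circles) in each listed bin of the TFRC 3′ UTR, by distance from the start of the stop codon in nt (horizontal axis). Dashed lines mark the 4 IREs found by the rule. Reads spread over the whole 3′ UTR in the 3 samples and input mostly exceeds IP, with no accumulation of IP reads at the dashed lines.

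The genes whose 3 values were nearest to those of TFRC, among 2141 genes with at least 500 IP reads in each sample, were SON, RPN1 and CHD1, at Euclidean distances of 0.0522, 0.0859 and 0.105 in log2 units. SON, which codes for a splicing protein, had -0.86, -1.26 and -1.27.

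Over all listed bins the ferritin mRNAs gave the lowest values among the iron genes, and both lay in the lowest part of all genes. FTH1 (chr11, minus strand) had 805, 1142 and 2294 IP reads against 2230, 4275 and 5613 input reads, a log2 IP over input of -1.84, -2.06 and -1.99 (UACC-62 mean -2.02 ± 0.051, SD, n = 2). FTL (chr19, plus strand) had 2299, 2286 and 4900 IP reads against 8685, 12794 and 14826 input reads, which gave -2.29, -2.64 and -2.29 (UACC-62 mean -2.47 ± 0.25, SD, n = 2). Only 1.01%, 10.97% and 6.38% of the measured genes were lower than FTH1, and 0.213%, 2.05% and 1.74% were lower than FTL. FTL was below FTH1 in each sample, with a difference of -0.45 ± 0.14 on the log2 scale (mean ± SD, n = 3; exact sign-flip permutation test, p = 0.25).

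Both ferritin mRNAs were abundant in the input. FTL had 1180, 1445 and 1912 input reads per kb of exon and 1000000 listed reads, with 99.8%, 99.8% and 99.9% of the measured genes lower, and FTH1 had 160, 254.5 and 382. TFRC, by the same measure, had 73.4, 142 and 118. Across all genes log2 IP over input was lower at higher input reads per kb, with Spearman's rho of -0.57, -0.55 and -0.52, and higher in longer mRNAs, with rho of 0.38, 0.43 and 0.40; both are descriptions across genes that share libraries, and input reads enter both measures of the first. The part of input level and length in the ferritin values was not tested.

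Both ferritin mRNAs nevertheless held peaks. FTL had 23 common peaks, 14 in the coding region, 6 in the 3′ UTR and 3 in the 5′ UTR, and FTH1 had 10, of which 6 were in the 3′ UTR and 4 in the coding region. Together with TFRC these were 3 of the 7 iron genes with a common peak, against 8.69% of all protein-coding genes and 13.1% of those with any listed bin. Both shares include genes with few reads, so they do not show an excess over genes with as many reads. The strongest bin of FTL was chr19:49470081-49470100 near the 3′ end of its mRNA, with 284, 249 and 642 IP reads and 616, 1436 and 2095 input reads. The strongest of FTH1 was chr11:61732081-61732100 in its 3′ UTR, with 153, 208 and 474 IP reads and 463, 847 and 1148 input reads. Even these bins had fewer IP than input reads in every sample. Of the 33 common peaks of both mRNAs 1 had more IP than input reads in any sample, the FTH1 bin chr11:61732021-61732040, with 40 and 13 in SK-Mel-103, while UACC-62 had 41 and 83 IP reads there against 75 and 121. In the FTL coding region the bin with most IP reads, chr19:49469861-49469880, had 128, 149 and 319 against 581, 760 and 958 input reads, and in its 5′ UTR chr19:49468741-49468760 had 68, 58 and 189 against 291, 410 and 463.

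Within the ferritin mRNAs the regions differed little. The FTH1 3′ UTR gave -1.67, -1.96 and -1.89 and its coding region -2.05, -2.18 and -2.12, a difference of 0.28 ± 0.093 (mean ± SD, n = 3). The FTL 3′ UTR gave -2.27, -2.79 and -2.43 and its coding region -2.27, -2.48 and -2.21, a difference of -0.18 ± 0.16. FTL therefore lacked the higher 3′ UTR value that most genes had. The FTL 5′ UTR, downstream of its IRE, was also low, at -2.44, -2.91 and -2.23.

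The IREs of the ferritin and ferroportin mRNAs, unlike those of TFRC, were almost without listed bins. The FTH1 and SLC40A1 IREs had none in any sample, and the FTL IRE had 1, with 4 IP and 10 input reads in UACC-62 replicate 1. These IREs lie close to the start of their mRNAs, and no listed bin there does not show that reads were absent, since a listed bin holds at least 4 IP reads.

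**Figure D3:**
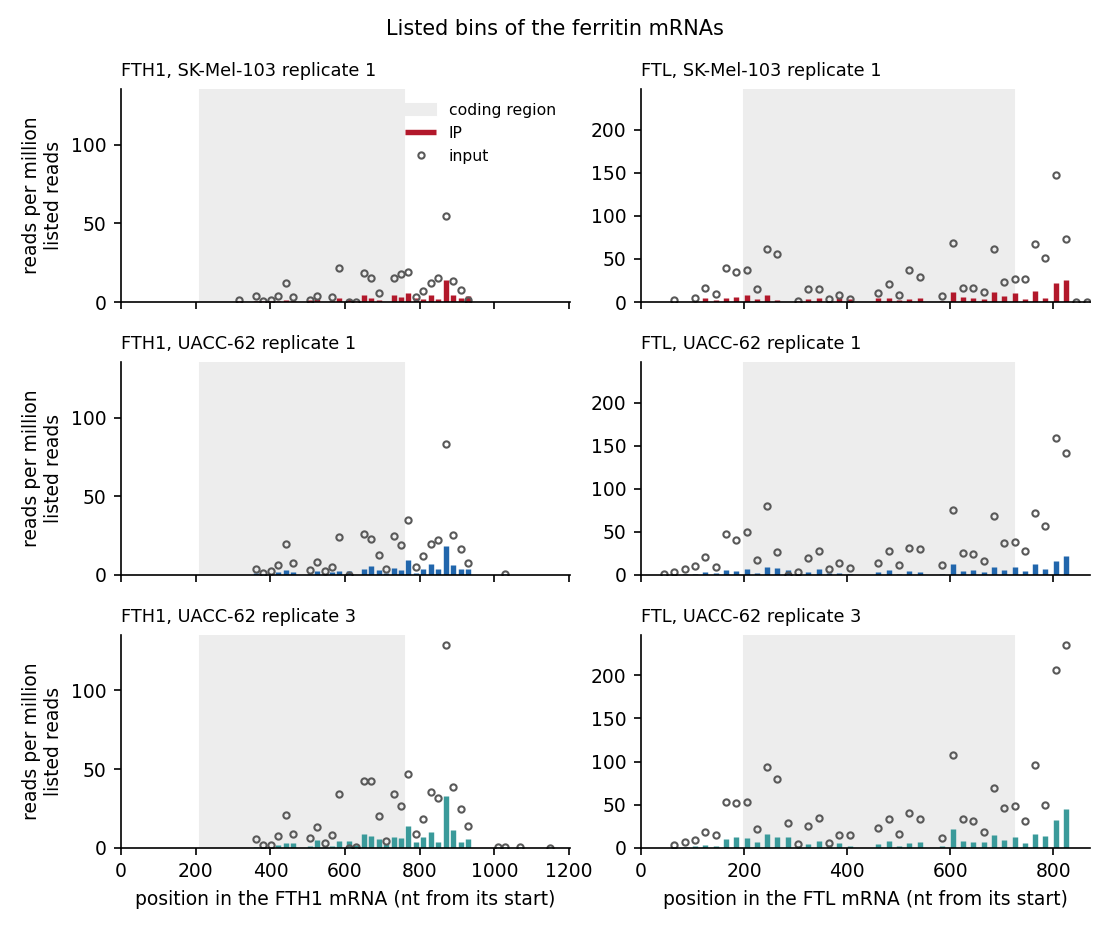
Reads per 1000000 listed reads (vertical axes, scaled per gene) of IP (bars) and input (circles) in each listed bin of the FTH1 mRNA (left) and FTL mRNA (right), by position from the mRNA start in nt; grey shading marks the coding region. Input exceeds IP nearly everywhere, both peak in the 3′ UTR, and the first bases of both mRNAs, with the IREs, hold almost no listed bins.

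The ferritin genes have many processed copies in the genome, and this bears on their reads. Of all 40-nt windows of the FTH1 mRNA, the length of the reads, 52.8% (615 of 1164) occur exactly at another locus, with up to 12 copies, and of FTL 38.8% (323 of 832) do, whereas TFRC has 1.38%. The alignment kept reads with up to 20 hits, and a ferritin bin may therefore hold reads of other loci. The 25 annotated FTH1 pseudogenes had few listed reads themselves, with 1, 1 and 2 of them listed and 3.25%, 4.83% and 4.34% of the family's IP reads. FTH1P3 had most, 27, 58 and 98 IP reads. Of the 16 FTL pseudogenes 0, 1 and 2 were listed, with FTLP10 at 0, 14 and 11 IP reads, and the next of either family, FTH1P20, had 6 IP reads in UACC-62 replicate 3 alone. Adding the pseudogenes to their genes moved FTH1 to -1.91, -2.11 and -2.04 and FTL to -2.29, -2.63 and -2.29.

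The regulated 3′ UTR of TFRC was then set against the short ferritin mRNAs. The TFRC 3′ UTR was above the mean of FTH1 and FTL in every sample, by 1.30, 1.16 and 1.02 on the log2 scale. The mean difference was 1.16 ± 0.14 (SD, n = 3), or 2.23-fold, in a 2-sided exact sign-flip permutation test with p = 0.25 (0.3 after Benjamini-Hochberg adjustment over 12 such comparisons). The difference was larger than the spread between the samples. It depended on how repeated sequence was treated, by an alternative chosen after seeing the data. With bins left out where most 40-nt windows have a copy elsewhere it was 0.94, 1.07 and 0.92 (mean 0.97 ± 0.080), over 8 to 14 bins of FTH1 and 23 or 24 of FTL. With every bin left out whose centre falls in any copied window, it was -0.54, 0.72 and 0.54 (mean 0.24 ± 0.68, n = 3; exact sign-flip permutation test, p = 0.75). Only 1, 2 and 6 bins of FTH1 were then left, and 4, 3 and 3 of FTL. FTH1 gave 1.18, -0.92 and -0.97 in these bins, above the TFRC 3′ UTR in all 3 samples, from 40, 46 and 112 IP reads against 13, 79 and 135 input reads. FTL gave -1.61, -2.91 and -2.35 and was still the lowest of the iron genes in each sample. Without exactly copied sequence the contrast therefore rests on very few bins and was not shown, and FTH1 was not below TFRC. Copies were searched as exact matches of 1 transcript per gene, while the alignment allowed mismatches, so reads of similar loci may remain.

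**Figure D4:**
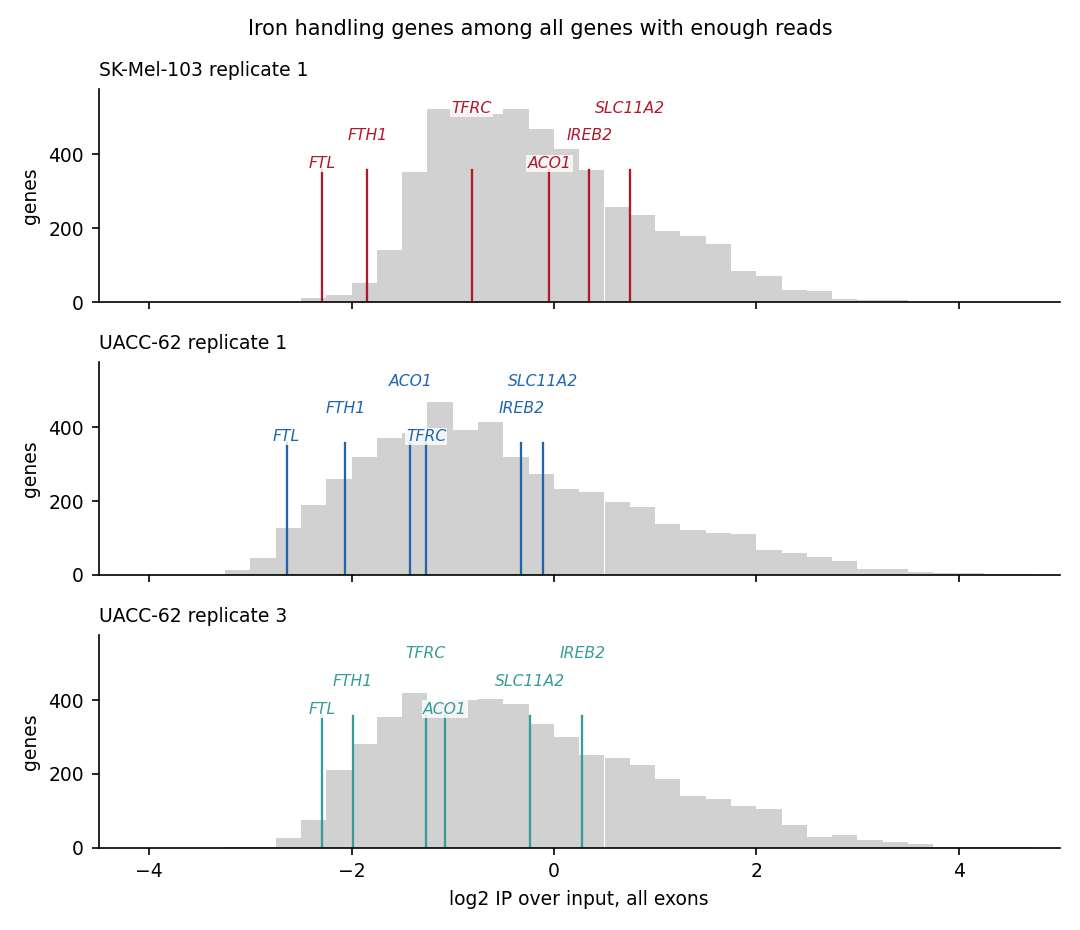
Number of genes (vertical axis) by log2 IP over input (horizontal axis, steps of 0.25) for the 5170 protein-coding genes with at least 100 IP reads in each sample; vertical lines mark 6 iron handling genes. FTL and FTH1 lie in the lower tail in the 3 samples, TFRC below the middle, and IREB2 and SLC11A2 above it.

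Of the sensors of iron, IREB2 showed higher values than TFRC in each sample, whereas ACO1 did so in SK-Mel-103 and UACC-62 replicate 3 and not in UACC-62 replicate 1. IREB2 (chr15, plus strand), which encodes IRP2, had 2329, 1302 and 2949 IP reads against 1410, 1459 and 1495 input reads. This gave 0.35 for SK-Mel-103 and -0.32 and 0.28 for UACC-62 (mean -0.020 ± 0.43, SD, n = 2). The replicates of UACC-62 lay on both sides of 0, and SK-Mel-103 was close to the higher of them. Of the measured genes 71.7%, 62.2% and 70.1% were lower.

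The IREB2 reads were concentrated in its 3′ UTR, which gave 0.59, -0.13 and 0.56 against -0.47, -0.87 and -0.64 in the coding region. The difference of 1.004 ± 0.24 (mean ± SD, n = 3; exact sign-flip permutation test, p = 0.25) was the largest of this kind among the 6 iron genes in which both regions could be compared, and compares with the all-gene median of 0.66. Nearly all of these reads lay in the last exon, chr15:78790483-78793795, with 1895, 1013 and 2430 IP reads and 961, 981 and 975 input reads. An alternative 3′ end inside the gene, chr15:78765730-78769042, had 41, 15 and 32 IP reads. Against the TFRC 3′ UTR that of IREB2 was higher in each sample, by 1.37 ± 0.31 (mean ± SD, n = 3; exact sign-flip permutation test, p = 0.25), or 2.58-fold. IREB2 had 14, 0 and 16 bins above 30 IP reads and hence no common peak, since UACC-62 replicate 1 had no bin above 26 reads.

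GRE-like stretches were counted as 11-nt windows of the annotated UTRs within 2 mismatches of UGUUUGUUUGU or UGUGUGUGUGU on the transcript strand, the consensus forms named in the methods. The 3′ UTR of IREB2 held 13 of them, ACO1 4, SLC11A2 3 and TFRC 2, while FTH1, FTL and SLC40A1 held 0. These counts were not adjusted for the length searched. It was 6629 nt for IREB2, 4661 for ACO1, 4356 for SLC11A2 and 3342 for TFRC, but 503 for FTH1, 147 for FTL and 1291 for SLC40A1. Such a window is common, in the 3′ UTR of 55.3% of all genes, and some of those counted overlap each other. The 2 windows of TFRC had a listed bin in only 1 sample, with 6 IP and 8 input reads in UACC-62 replicate 1, and none of the 4 windows of ACO1 had any. Of the 13 windows of IREB2, 6 lay in the alternative 3′ end inside the gene and had no listed bin in any sample, and the other 7, in the last exon, had one in at least 1 sample, 4 of them in all 3. Of the 3 windows of SLC11A2, 1 had listed bins, with 4, 7 and 5 IP reads against 1, 4 and 8 input reads. The IREB2 window with most IP reads is shown because it is the best covered GRE-like stretch among these genes, chosen after the reads were seen.
IREB2 3′ UTR, chr15:78792820-78792830, plus strand: uguuaguuuuu
Its bins held 52, 10 and 56 IP reads and 8, 11 and 12 input reads, so that IP exceeded input in SK-Mel-103 and UACC-62 replicate 3 and not in UACC-62 replicate 1.

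ACO1 (chr9, plus strand), which encodes IRP1, a cytosolic aconitase when it carries its iron-sulfur cluster, had far fewer reads. These were 131, 143 and 278 IP reads against 104, 344 and 362 input reads, for -0.044 in SK-Mel-103 and -1.42 and -1.08 in UACC-62 (mean -1.25 ± 0.24, SD, n = 2). SK-Mel-103 lay above both UACC-62 replicates. Its counting interval reached from -0.42 to 0.34 and did not overlap theirs, but the line had 1 replicate. The 3′ UTR did not stand above the coding region, with a difference of -0.062 ± 0.25 (mean ± SD, n = 3; exact sign-flip permutation test, p = 1), and it differed from the TFRC 3′ UTR by 0.16 ± 0.48 (p = 1 in the same exact test).

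The other transporters were near the limit of the data. SLC40A1 (chr2, minus strand), the ferroportin gene, had no listed bin in SK-Mel-103, and 33 and 99 IP reads against 39 and 60 input reads in UACC-62, for -0.39 and 0.015 with counting intervals of -1.11 to 0.31 and -0.45 to 0.51. No departure from 0 was detectable at this depth. In bulk cells, fewer cells that express a gene and less RNA per cell cannot be told apart.

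SLC11A2 (chr12, minus strand) had 312, 510 and 587 IP reads against 142, 494 and 425 input reads. The resulting values were 0.76 for SK-Mel-103 and -0.11 and -0.23 for UACC-62 (mean -0.17 ± 0.086, SD, n = 2). SK-Mel-103 was on one side of 0 and UACC-62 on the other, a pattern that 6.32% of all measured genes had and that did not hold with exonic totals, where the UACC-62 mean was 0.014. Its 3′ UTR was above its coding region by 0.58 ± 0.19 (mean ± SD, n = 3) and above the TFRC 3′ UTR by 1.35 ± 0.33, each in all 3 samples (exact sign-flip permutation test, p = 0.25).

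The annotation gives SLC11A2 alternative 3′ ends in separate last exons, and their values differed more than those of any other pair of regions described here; this pair was chosen after its values were seen and carries no test. The distal 3′ UTR, chr12:51373567-51375586, had 169, 191 and 202 IP reads against 45, 62 and 49 input reads, or 1.51, 1.45 and 1.32. The proximal one, chr12:51379775-51382110, had 71, 155 and 212 IP reads against 53, 211 and 226, or 0.041, -0.60 and -0.79. The distal end was therefore higher in all 3 samples, by 1.47, 2.05 and 2.11 (mean 1.88 ± 0.35, SD, n = 3), and its 3 values did not overlap those of the proximal end. Part of the distal end has copies elsewhere in the genome, and without the bins in them it gave 1.60, 1.44 and 1.17. No bin of SLC11A2 had more than 30 IP reads, so neither end held a peak.

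**Figure D5:**
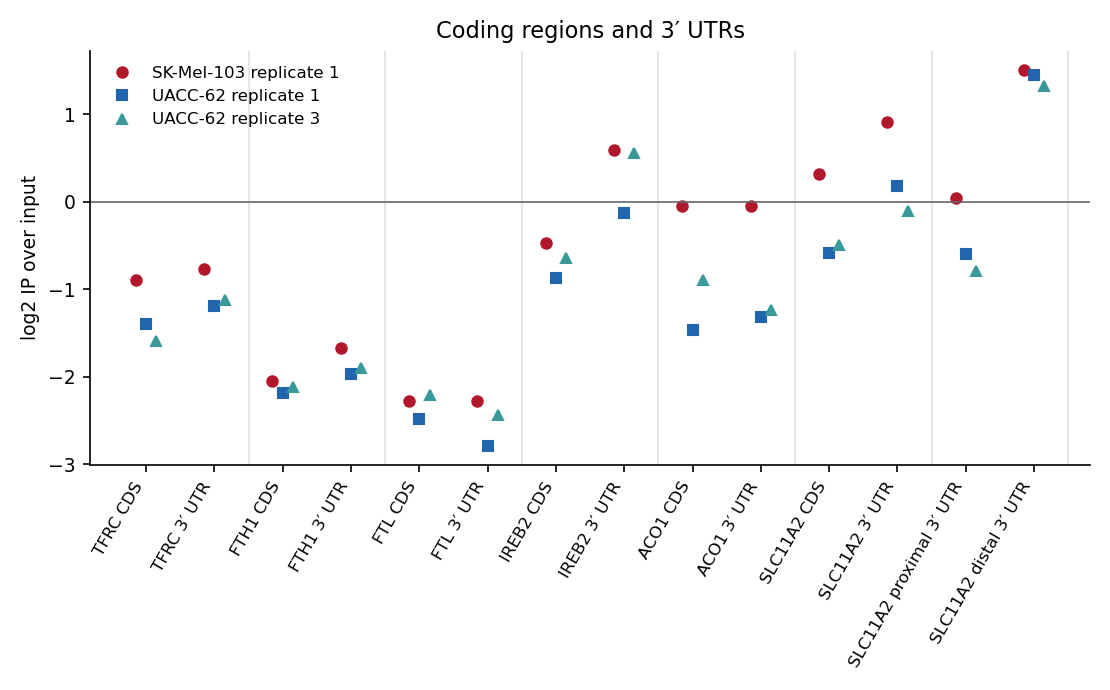
Log2 IP over input (vertical axis) of the coding region (CDS) and 3′ UTR of 6 iron handling genes and of the 2 annotated 3′ ends of SLC11A2, 1 point per IP sample. IREB2 shows the largest step from coding region to 3′ UTR among the 6 genes, and the distal 3′ end of SLC11A2 lies at 1.32 or higher in the 3 samples, above every other region shown.

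Beyond the 7 genes, 42 further genes of iron metabolism were taken as a list by their known roles. Of these, 7 had a common peak, 18 had enough reads to be measured, and 6 had no listed read. A common peak was found in 8.69% of all protein-coding genes and in 13.1% of those with any listed bin. Both shares include genes with few reads, whereas a peak needs a minimum of IP reads in a bin. These shares therefore do not show whether the list held more peaks than genes with as many reads. Among the 18, 12 were below 0 in all 3 samples and 4 above, against 56.3% and 28.4% of all measured genes, and their medians were -0.44, -1.38 and -1.22.

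By role, the regulators of the IRPs (FBXL5, SKP1 and CUL1, parts of a ubiquitin ligase for IRP2) were all below 0 in the 3 samples, and SKP1, with 3 common peaks, had -0.58, -1.79 and -1.36. In the mitochondrial group 5 of 7 measured genes were below 0 throughout, among them HSPA9, the mitochondrial chaperone, at -1.53, -2.56 and -2.22 with 5 common peaks, and SDHB, an iron-sulfur subunit of succinate dehydrogenase, at -1.37, -2.53 and -2.16 with 1. The iron chaperones PCBP1 and PCBP2 had 12 and 30 common peaks but values near the middle, -0.019, 0.57 and -0.054 for PCBP1 and -0.30, -0.39 and -0.32 for PCBP2. SLC39A14, a zinc and iron importer, had 2 common peaks and 0.057, -0.69 and -0.22. In the group for export and systemic control none of the 6 genes had enough reads.

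HMOX1, the haem oxygenase that frees iron from haem, gave the highest values of the 18 measured genes in each sample. It had 494, 1630 and 2524 IP reads against 72, 194 and 155 input reads, for 2.39, 2.91 and 3.32, and 4 common peaks. These values lay above the 95th percentile of all measured genes in each sample, where the other six listed genes with a common peak reached 0.57 at most.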

How the data were processed

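The member genes and lists were chosen with earlier results of these data known. Per the methods, 40-nt reads were mapped by the authors to GRCh37 (TopHat, first-strand setting), and Piranha was run in 20-bp bins with the input as covariate. The authors deposited whole IP read counts per bin without normalization, for passing bins only, with no pooling of replicates and without their filter of more than 30 reads. The deposited p-value comes from Piranha, and whether it is the corrected one is not given in the sources used here. The ratio deposited by the authors in the last column is the input covariate, in which 0.01 marks a bin without input. Each covariate, divided by the smallest step of its list (refined by least squares), gave input reads that were whole to within 0.0071, 0.0185 and 0.0168 of a read in the 3 lists, and these were rounded. The columns were mapped by the labels, with 0 left unassigned.

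Exons and UTRs came from GENCODE version 44 mapped to GRCh37, in which the 3′ UTR includes the stop codon. A bin centre was placed in 3′ UTR, coding region or 5′ UTR, in that order. Named genes were the 7 members, listed genes with a common peak, the 3 ferritin pseudogenes with most IP reads, and the 3 nearest genes to TFRC and FTH1. For FTH1 these were LRRC59, TKT and CAPN2, at distances of 0.168, 0.202 and 0.209. Differences were formed within each sample, each IP against its own input of the same replicate number, and compared by a 2-sided exact sign-flip test. A count test of IP against input across genes was not run, since the lists hold only selected bins. Intervals of 95% are exact binomial and cover counting error only; reads carry no molecular identifiers. Scripts were tested on simulated data (scipy 1.17.1, matplotlib 3.10.9, pandas 2.3.3, numpy 2.4.6, Python 3.11.15). Alternatives covered the pseudocount (0.5 read), totals, read filters, p-value (0.01), strand, transcripts, copied sequence, pairing and leaving out each UACC-62 replicate.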

Additional observations from a re-analysis of the deposited data

Results flagged for a closer look

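SLC11A2, the iron transporter gene, was singled out because the cell lines lay on opposite sides of 0. In log2 IP over input it had 0.76 in SK-Mel-103 replicate 1, and -0.11 and -0.23 in UACC-62 replicates 1 and 3. The difference between the lines was not tested, as SK-Mel-103 had 1 replicate, and 6.32% of all measured genes showed the same pattern. The side of 0 of the UACC-62 mean also depended on the scaling, being 0.014 when reads were divided by exonic totals.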

How the results depend on the processing

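The mean of the TFRC 3′ UTR over the ferritin mRNAs was 1.15 to 1.34 under the alternatives other than those on copied sequence. It was 0.97 with copied sequence left out in part, and 0.24 ± 0.68 (SD, n = 3; p = 0.75, exact sign-flip test) with it left out in whole, where SK-Mel-103 turned to -0.54. Without the replicate block, with the UACC-62 reads summed instead of pairing each IP with its own input, the values were 1.15 and, for the IRE stretch, -0.25 (p = 0.5 each in the exact sign-flip test, the smallest it can give there). Leaving out 1 UACC-62 replicate gave 1.16 to 1.23 for TFRC against ferritin and -0.27 to -0.23 for the IRE stretch, which turned to 0.12 with bins above 30 reads and 0.049 near the IREs only. Genes with a common peak numbered 3 of the 7: 6 without a read filter and 0 on the listed strand, and 3 to 4 with 1 replicate left out. For the list of 42, 7 became 26 without a filter, 2 above 100 reads, 1 on the listed strand and 7 to 10 with 1 replicate left out. The share of all genes under these alternatives is not given, so these counts do not compare the iron genes with others. Dividing by exonic totals raised all log2 values by 0.18, 0.24 and 0.13.

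Of 131 values of single genes 88 stayed within the range allowed for them, 30 moved and 13 changed sign. For the UACC-62 means this range was the replicate spread. SK-Mel-103 has no replicate spread, and its values were set against their counting interval, which covers counting error only. With exonic totals ACO1 became 0.14 in SK-Mel-103, and the UACC-62 means of IREB2 and SLC11A2 became 0.17 and 0.014. With no totals these were 0.33, 0.41 and 0.26, and SLC40A1 was 0.24. SLC11A2 over 1 transcript gave 0.19. The IREB2 mean was 0.015 over bins listed in all samples, 0.090 without the block, and -0.32 to 0.28 with 1 replicate left out, where SLC40A1 ranged from -0.39 to 0.015. Without copied sequence FTH1 was 1.18 in SK-Mel-103 and -0.94 as the UACC-62 mean. The cause of the other changes was not tested. SLC40A1 and ACO1 had the fewest reads of the 7 genes.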

Other observations

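FLVCR1, a haem exporter, and SLC25A37, a mitochondrial iron importer, belong to the list of 42 genes but had no common peak, and they are named here because of their values. FLVCR1 had 649, 575 and 872 IP reads against 153, 135 and 124 input reads, or 1.70, 1.93 and 2.11 in log2 IP over input. SLC25A37 had 1396, 507 and 691 IP reads against 628, 195 and 118, or 0.78, 1.22 and 1.84. NCOA4, the receptor that delivers ferritin to lysosomes, had -1.49, -2.21 and -1.67 and no common peak.

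Introns of the iron genes held few listed bins. TFRC had 25, 11 and 15, with 169, 161 and 170 IP reads against 119, 215 and 183 input reads, and IREB2 had 20, 3 and 10, with 101, 13 and 48 IP reads against 27, 18 and 11.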
